A study of Rattus norvegicus with 21 samples.

Results

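The genes described here encode the receptors of the corticosteroid stress hormones, the proteins that set how those receptors bind and receive hormone, and the CRH and vasopressin components that act beside them. They are 10 genes taken by name: Nr3c1, Nr3c2, Fkbp4, Fkbp5, Hsd11b1, Crh, Crhr1, Crhbp, Avpr1a and Avpr1b. Each was read from a probe set annotated to its symbol alone, and 9 of the 10 had one, with 1 probe set each. Of these, 8 passed the filter on low signal and were tested, among 10804 genes tested of 14506 that had a probe set of 1 symbol. Crh lay below the filter, and Crhr1 was not analysed here because no probe set was annotated to it alone.

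RNA from the dentate gyrus, the hippocampal field of the granule neurons, was measured on Affymetrix expression arrays in 18 wild-type male Wistar rats, 2 months old, with 3 animals in each of 6 groups. In 4 groups the rats were exposed to unpredictable chronic mild stress for 6 weeks and had an antidepressant injected into the peritoneum each day of the last 2 weeks: fluoxetine, imipramine or tianeptine at 10 mg/kg, or agomelatine at 40 mg/kg. The stress group had the same 6 weeks of stress and no drug, and the control group had neither. Fluoxetine is a serotonin reuptake inhibitor, imipramine and tianeptine are tricyclic compounds, and agomelatine is a melatonin receptor agonist and serotonin receptor antagonist. The vehicle was water for fluoxetine, saline for imipramine and tianeptine, and hydroxyethylcellulose for agomelatine. The labels do not say whether the stress and control animals were injected, so a drug cannot be told apart from its injections and vehicle in any comparison with those groups.

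Corticosterone, the main glucocorticoid of the rat, binds the high-affinity mineralocorticoid receptor (Nr3c2) and the lower-affinity glucocorticoid receptor (Nr3c1), and both are abundant in the hippocampus. The unliganded receptors sit in complexes with HSP90, in which the immunophilin FKBP51 (Fkbp5) lowers hormone binding and FKBP52 (Fkbp4) takes its place as the receptor moves to the nucleus. Glucocorticoids are known to induce Fkbp5, and the hypothalamic peptides CRH and vasopressin drive the pituitary signal for their release.

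Values are log2 expression, so a difference of 1 is a doubling, and a level is the mean of 3 animals with its SD. Each control rat was hybridised to 2 arrays, a first and a repeat, whose mean is its value. Across the 21 arrays the medians lay between 7.99 and 8.10. Of 6 markers of granule neurons, the main neurons of the labelled tissue, that had a probe set, 5 passed the filter on low signal, Prox1 and C1ql2 among them. The median SD between animals was 0.114 in the agomelatine group and between 0.063 and 0.085 in the other groups. In 1 agomelatine rat (replicate 1) the markers of choroid plexus epithelium averaged 3.46 above their mean over all rats, and in 1 stress rat (replicate 1) 1.08 above it, against values between -0.450 and -0.0603 in the other 16 rats.

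Of the 8 members tested, Crhbp was the only one that passed the test in any comparison with stress or control. It was higher with agomelatine than in the stress or the control group. In limma's F test over the 6 groups, Crhbp was likewise the 1 member called (adjusted p = 0.0157), where 6.76% of all genes were called. The glucocorticoid receptor gene Nr3c1 differed least between the groups (adjusted p = 0.918). Nr3c2 (0.210), Fkbp4 (0.148), Fkbp5 (0.291), Hsd11b1 (0.615), Avpr1a (0.883) and Avpr1b (0.162) did not pass either.

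**Figure D1:**
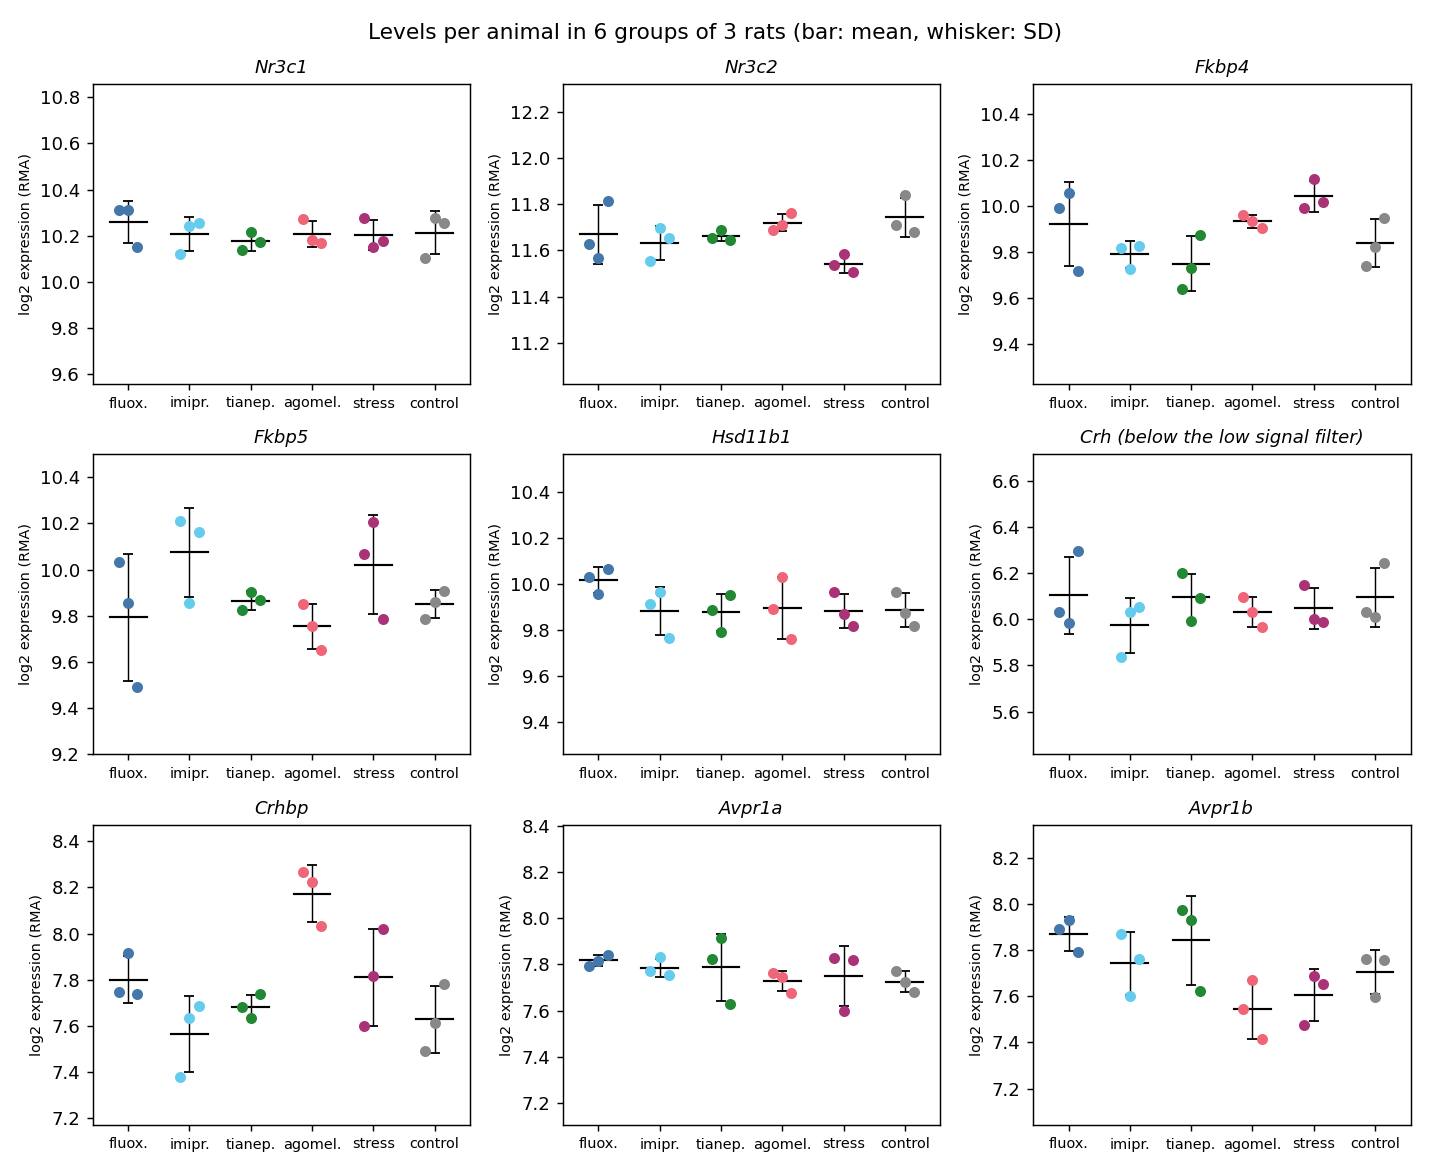
Log2 expression of 9 members in each rat (points), by group on the horizontal axis, with the group mean (bar) and SD (whisker, n = 3); each vertical axis spans the same log2 width. The 3 agomelatine rats lie between 8.03 and 8.27 for Crhbp, above all 3 control rats at 7.49, 7.61 and 7.78, while the groups of Nr3c1 lie on top of each other.

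The glucocorticoid receptor gene Nr3c1 stayed within a log2 range of 0.207 over the 18 rats. It was at 10.31, 10.31 and 10.15 in the fluoxetine rats, 10.12, 10.24 and 10.26 in the imipramine rats, 10.14, 10.22 and 10.17 in the tianeptine rats and 10.27, 10.18 and 10.17 in the agomelatine rats. The stress rats were at 10.28, 10.15 and 10.18 and the control rats at 10.11, 10.28 and 10.26. All 6 groups overlapped. Stress minus control was -0.01 ± 0.06 (SE), with a 95% interval of -0.15 to 0.12 (0.90 to 1.09-fold). Against stress, the differences were 0.06 with fluoxetine, 0.01 with imipramine, -0.03 with tianeptine and 0.01 with agomelatine, each with an SE of 0.06.

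The mineralocorticoid receptor gene Nr3c2 was lowest in the stress group. Its levels were 11.54, 11.59 and 11.51 in the stress rats, against 11.71, 11.84 and 11.68 in the control rats. Every stress rat lay below every control rat. The difference of -0.20 ± 0.06 (SE, 95% interval -0.33 to -0.07) had an unadjusted p of 0.00372 but an adjusted p of 0.828 in limma over all genes, so Nr3c2 was not called. It was -0.16 against the first control arrays and -0.25 against the repeat control arrays, and neither was called. The limma adjusted p was above 0.828 with the first arrays and 0.0552 with the repeat arrays. In bulk tissue, fewer cells of a type and less RNA per cell cannot be told apart, here and in all results that follow.

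In the rats given a drug, Nr3c2 lay between the stress and control levels on average. It was at 11.63, 11.57 and 11.81 with fluoxetine, 11.55, 11.70 and 11.65 with imipramine, 11.66, 11.69 and 11.65 with tianeptine and 11.69, 11.71 and 11.76 with agomelatine. The tianeptine and agomelatine rats did not overlap the stress rats, and the fluoxetine and imipramine rats did. The differences from stress were 0.13 with fluoxetine, 0.09 with imipramine, 0.12 with tianeptine and 0.18 with agomelatine, each with an SE of 0.06. Agomelatine came nearest to the threshold (limma adjusted p = 0.0649, 95% interval 0.05 to 0.31). With fluoxetine replicate 3 left out of the shared fit the same difference passed (adjusted p = 0.0242). When a stress or agomelatine rat was left out, it did not pass (adjusted p between 0.0872 and 0.179). Nor did it pass with array weights (0.160) or with only the groups compared (0.123). By group mean the order, lowest first, was stress (11.54), imipramine (11.63), tianeptine (11.66), fluoxetine (11.67), agomelatine (11.72) and control (11.74). Fluoxetine and agomelatine, given at different doses, were not compared, and none of the other 4 steps in that order was called. Against control, the drug groups differed by -0.07 with fluoxetine, -0.11 with imipramine, -0.08 with tianeptine and -0.02 with agomelatine. The comparisons with stress share the 3 stress rats and those with control share the 3 control rats, so values that point the same way across drugs are not independent.

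Fkbp4, which encodes the cochaperone FKBP52, was highest in the stress group. It stood at 9.99, 10.12 and 10.02 in the stress rats, against 9.74, 9.82 and 9.95 in the control rats. The groups did not overlap, with the lowest stress rat just above the highest control rat. The difference was 0.20 ± 0.08 (SE; unadjusted p = 0.0242, adjusted p = 0.828). Set against 1 array per control rat, it was 0.11 with the first arrays and 0.29 with the repeat arrays, and neither was called. The limma adjusted p was above 0.828 with the first arrays and 0.0954 with the repeat arrays.

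With tianeptine Fkbp4 was at 9.64, 9.73 and 9.88, and with imipramine at 9.82, 9.73 and 9.83, all below the 3 stress rats. The differences from stress were -0.29 ± 0.08 with tianeptine (unadjusted p = 0.00235, adjusted p = 0.874) and -0.25 ± 0.08 with imipramine (unadjusted p = 0.00693, adjusted p = 0.459). With fluoxetine the values were 9.99, 10.06 and 9.72, of which the first 2 lay among the stress rats, and the difference was -0.12 ± 0.08, or -0.02 without fluoxetine replicate 3. With agomelatine they were 9.96, 9.93 and 9.91, tightly grouped just below the stress rats, and the difference was -0.11 ± 0.08. None of these was called. Against control, Fkbp4 differed by 0.08 with fluoxetine, -0.05 with imipramine, -0.09 with tianeptine and 0.10 with agomelatine, each with an SE of 0.08, and all 4 groups overlapped the control rats.

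Fkbp5, the glucocorticoid-induced cochaperone FKBP51, varied more between rats of the same group than 91.8% of the tested genes, with a pooled SD of 0.171 against a median of 0.101. The stress rats were at 10.07, 10.21 and 9.79, against 9.79, 9.86 and 9.91 in the control rats. Stress replicates 1 and 2 lay above all controls and replicate 3 at the lower end of them. The difference was 0.17 ± 0.12 (limma adjusted p = 0.845). It was 0.07 against the first control arrays and 0.27 against the repeat control arrays, and neither was called. The limma adjusted p was above 0.845 with the first arrays and 0.242 with the repeat arrays. The drug groups were at 10.03, 9.86 and 9.49 with fluoxetine, 10.21, 9.86 and 10.16 with imipramine, 9.83, 9.91 and 9.87 with tianeptine and 9.85, 9.75 and 9.65 with agomelatine. Imipramine was the only drug whose rats were on average above the stress rats, and all drug groups overlapped them. The lowest value of the set was fluoxetine replicate 3. Agomelatine minus stress was -0.27 ± 0.12 (unadjusted p = 0.0409, adjusted p = 0.162), fluoxetine minus stress -0.23 ± 0.12, tianeptine minus stress -0.15 ± 0.12 and imipramine minus stress 0.06 ± 0.12. With fluoxetine replicate 3 left out, fluoxetine minus stress was -0.08, and with stress replicate 2 left out, agomelatine minus stress was -0.17. Against control, imipramine differed by 0.22, agomelatine by -0.10, fluoxetine by -0.06 and tianeptine by 0.01.

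Within each rat, the difference between the 2 receptor genes and between the 2 cochaperone genes removes any shift shared by the whole array. As different probe sets respond differently, only changes of such a difference between groups are read, not its size. Nr3c2 minus Nr3c1 averaged 1.34 ± 0.09 in stress rats and 1.53 ± 0.09 in control rats (SD, n = 3 each), a change of -0.19. The 3 stress values were 1.26, 1.33 and 1.43 and the 3 control values 1.43, 1.56 and 1.61, overlapping at their edge (exact two-sided permutation p = 0.2). Tianeptine rats, at 1.47, 1.47 and 1.52, lay above all stress rats (difference 0.15, exact permutation p = 0.1).

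Fkbp5 minus Fkbp4 averaged 0.29 ± 0.14 with imipramine, against -0.02 ± 0.18 in stress and 0.01 ± 0.05 in control rats (SD, n = 3 each). The imipramine rats, at 0.13, 0.34 and 0.39, lay above all rats of the stress and control groups. With agomelatine the values were -0.25, -0.18 and -0.11, below all 3 control rats (difference -0.19). These non-overlapping differences reached the smallest p that an exact permutation test of 3 against 3 animals can give, 0.1, so this design cannot go below 0.05. Over the 18 tests of the 2 measures in 9 comparisons the smallest adjusted p was 0.45.

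Hsd11b1 encodes the enzyme 11-beta-hydroxysteroid dehydrogenase type 1, which regenerates active corticosterone inside cells. It differed little between the groups. The stress rats were at 9.96, 9.87 and 9.82 and the control rats at 9.97, 9.87 and 9.82, with a difference of -0.003 (95% interval -0.16 to 0.15). The fluoxetine rats were somewhat higher, at 10.03, 9.96 and 10.06, but overlapped the stress group (difference 0.13 ± 0.07, SE). The imipramine group averaged 9.88, the tianeptine group 9.88 and the agomelatine group 9.89, within 0.02 of the stress mean. No difference in Hsd11b1 had an unadjusted p under 0.05.

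Crhbp encodes the CRH-binding protein, a secreted protein that sequesters CRH and urocortin, and in the hippocampus it is known mainly from GABAergic interneurons. It was measured at 8.27, 8.22 and 8.03 in the agomelatine rats, against 7.60, 7.82 and 8.02 in the stress rats. All 3 agomelatine rats lay above all 3 stress rats, but agomelatine replicate 3 and stress replicate 3 almost met. The difference was 0.36 ± 0.11 (SE), or 1.29-fold with a 95% interval of 1.10 to 1.51, and passed limma's test with an adjusted p of 0.0386.

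Against the control rats, at 7.49, 7.61 and 7.78, the same agomelatine rats were well separated. The difference was 0.54 ± 0.11 (SE), or 1.46-fold with a 95% interval of 1.25 to 1.71 (adjusted p = 0.00496). Crhbp stood at 7.75, 7.92 and 7.74 with fluoxetine, 7.38, 7.64 and 7.69 with imipramine and 7.68, 7.64 and 7.74 with tianeptine. These overlapped both the stress and the control group. Imipramine minus stress was -0.24 ± 0.11 (unadjusted p = 0.0367, adjusted p = 0.477; -0.14 without stress replicate 3), tianeptine minus stress -0.13 ± 0.11 and fluoxetine minus stress -0.01 ± 0.11. Stress minus control was 0.18 ± 0.11, not called. By group mean the order was agomelatine (8.17), stress (7.81), fluoxetine (7.80), tianeptine (7.68), control (7.63) and imipramine (7.57). Only the step between agomelatine and stress was called among neighbours.

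The difference from control was called in each of the 30 alternatives that tested Crhbp, with adjusted p between 0.00137 and 0.0345. The difference from stress was not called without stress replicate 1 (0.26, adjusted p = 0.158), stress replicate 2 (0.36, 0.0925), agomelatine replicate 1 (0.32, 0.104) or agomelatine replicate 2 (0.34, 0.0838), and without stress replicate 3 it was 0.47.

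**Figure D2:**
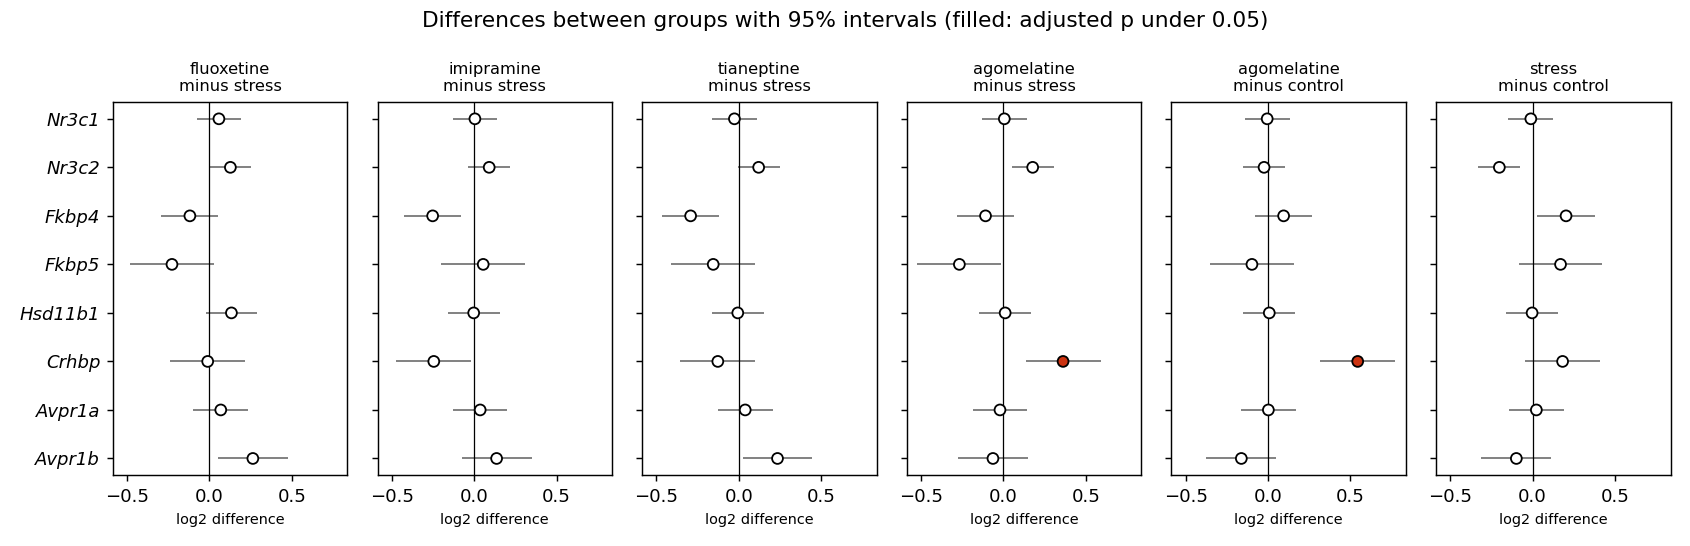
Log2 differences (points) with 95% intervals (lines) of the 8 tested members in 6 comparisons, with filled points for an adjusted p under 0.05. Only Crhbp is filled, at 0.36 in agomelatine minus stress and 0.54 in agomelatine minus control.

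Marker genes of several cell types moved with the agomelatine group, and their part in the Crhbp difference was not tested. All 7 tested oligodendrocyte markers were called higher against stress and against control (median differences 0.47 and 0.55). The mean of these markers, as a deviation from their mean over all rats, lay between 0.348 and 0.685 in agomelatine rats, between -0.161 and 0.0645 in stress rats and between -0.169 and -0.0604 in control rats. Of 5 granule neuron markers 3 were called lower against stress, among them C1ql2 (-0.55) and C1ql3 (-0.24), and the score lay between -0.354 and -0.237 in agomelatine rats, between -0.0498 and 0.0538 in stress rats and between -0.0431 and 0.138 in control rats. Of 7 markers of CA1 and CA3 pyramidal neurons 1 was called higher against stress, Wfs1 (0.76), and 2 against control. Against stress 1 of 7 astrocyte and 1 of 8 endothelial and pericyte markers were called lower. Of 5 CA2 neuron markers 1 was called lower, Pcp4 (-0.18), while 2 of the others lay above 0, Rgs14 at 0.26 and Amigo2 at 0.25, and the score lay between -0.0185 and 0.0467 in agomelatine rats and between 0.0111 and 0.0495 in stress rats. Against stress, limma called 0 of 8 microglial, 0 of 4 choroid plexus and 0 of 5 meningeal markers. An unadjusted p under 0.05 was found for 2, 0 and 1, beside 27% of all genes.

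Of 9 GABAergic interneuron markers 0 were called against stress, and 2 against control, Cck (0.70) and Gad2 (0.34). Against stress 5 of the 9 lay above 0 and 4 below it, with a median difference of 0.05. In the same comparison 4 had an unadjusted p under 0.05, beside 27% of all genes. Their score was 0.0823, 0.226 and -0.00782 in the agomelatine rats, -0.102, -0.0902 and 0.273 in the stress rats and -0.0401, -0.308 and -0.00843 in the control rats. Stress replicate 3, the stress rat with the highest Crhbp, had the highest interneuron score of all 18 rats. The CA1 and CA3 score was 0.424, 0.478 and -0.00346 in the agomelatine rats, -0.177, -0.0887 and 0.330 in the stress rats and -0.157, -0.170 and -0.0382 in the control rats. Its highest 3 values belonged to agomelatine replicates 1 and 2 and stress replicate 3, which were 3 of the 4 rats with the highest Crhbp.

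**Figure D3:**
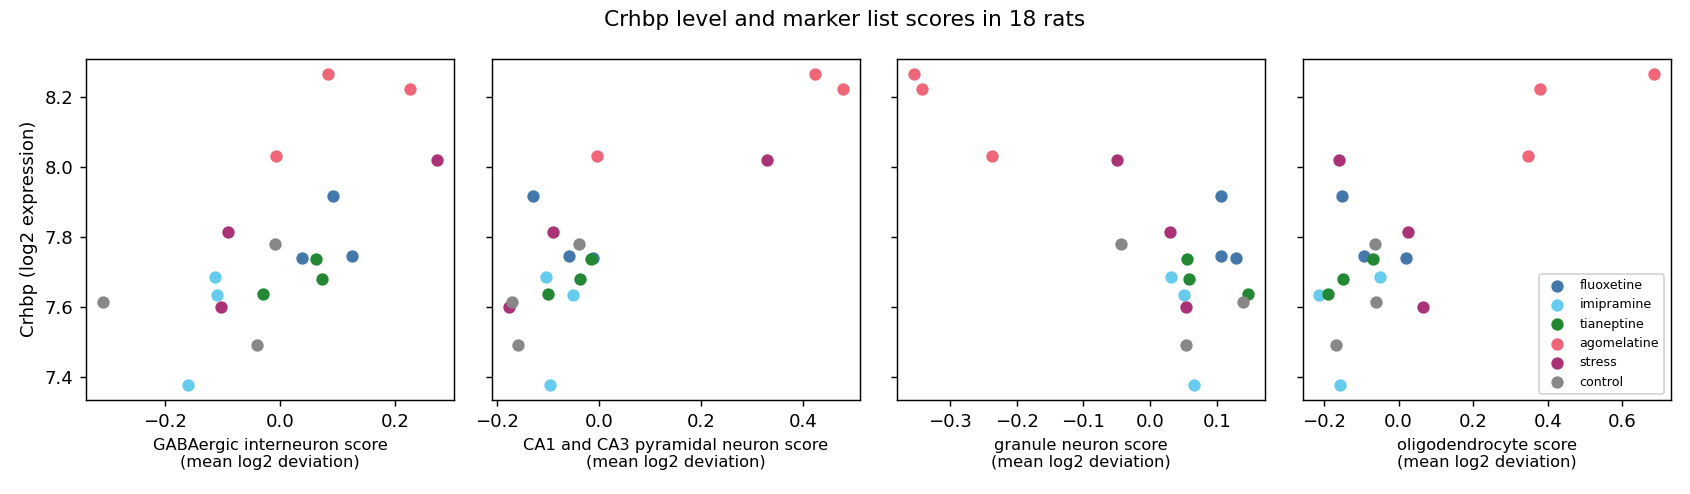
Crhbp level (log2, vertical axis) against the mean log2 deviation of 4 marker lists (horizontal axes) in 18 rats, coloured by group. The agomelatine rats have the highest oligodendrocyte scores (0.348 to 0.685) and the lowest granule neuron scores (-0.354 to -0.237). In the CA1 and CA3 panel stress replicate 3, at 0.330, is nearest to agomelatine replicates 1 and 2 (0.424 and 0.478). Agomelatine replicate 3 is at -0.00346 there.

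As Crhbp was the member that passed, the sequence around its start is shown, as given by RefSeq for the GRCr8 assembly. It spans 250 bases before to 50 bases after the annotated start of the gene, at chr2:28439397-28439696 on the minus strand, and is printed 5′ to 3′ in the direction of the gene. Capitals mark the TATA box letters TATAAA and the cyclic AMP response element start TGACG, here on the opposite strand and so read as CGTCA.
Crhbp: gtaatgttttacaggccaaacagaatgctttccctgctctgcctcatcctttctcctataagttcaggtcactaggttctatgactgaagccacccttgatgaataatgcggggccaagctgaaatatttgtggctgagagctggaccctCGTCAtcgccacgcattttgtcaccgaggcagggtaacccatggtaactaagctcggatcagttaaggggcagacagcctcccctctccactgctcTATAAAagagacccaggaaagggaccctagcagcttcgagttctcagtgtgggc
RefSeq windows were matched by symbol for 7 of the 10 members, namely Nr3c1, Fkbp4, Fkbp5, Crhr1, Crhbp, Avpr1a and Avpr1b. On either strand TATAAA was found in 2 of the 7, Crhbp and Avpr1a, against 14.2% of 33469 windows of all genes, and TGACG in the same pair, against 21.2%. The full cyclic AMP response element TGACGTCA, which overlaps TGACG, was in 0 of the 7 and in 1.83% of all windows. The glucocorticoid response element, searched as GNACA and TGTNC with 3 bases between them, was in 0 of the 7 and in 0.439% of all windows. The GC box GGGCGG was in 4 of the 7 (Nr3c1, Fkbp4, Fkbp5 and Crhr1), against 33.1%. The GC content was 51% for Crhbp and reached 79% for Nr3c1, with a median of 51.7% over all windows. A match describes these letters only.

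Crh, the gene of the hormone that Crhbp binds, had a dim signal below the filter and was not tested. Its group means were 6.10 with fluoxetine, 5.97 with imipramine, 6.10 with tianeptine, 6.03 with agomelatine, 6.05 with stress alone and 6.09 in control rats. The SDs lay between 0.064 and 0.167, and the groups overlapped.

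The vasopressin receptor genes Avpr1a, which encodes the V1a receptor, and Avpr1b, which encodes the V1b receptor known from pituitary corticotrophs and CA2 neurons, had signals near those of Crhbp on the array, in the lower part of the tested range. Avpr1b was at 7.89, 7.93 and 7.79 with fluoxetine and 7.97, 7.93 and 7.62 with tianeptine, against 7.48, 7.69 and 7.66 in the stress rats. All fluoxetine rats and 2 of the 3 tianeptine rats lay above the stress rats. The differences were 0.26 ± 0.10 with fluoxetine (unadjusted p = 0.0178, adjusted p = 0.959) and 0.24 ± 0.10 with tianeptine (unadjusted p = 0.0317, adjusted p = 0.943), and neither was called.

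With imipramine Avpr1b was at 7.87, 7.60 and 7.76, with agomelatine at 7.55, 7.67 and 7.41 and in the control rats at 7.76, 7.60 and 7.76. These overlapped the stress rats, with differences from stress of 0.14 for imipramine and -0.06 for agomelatine, and -0.10 for stress minus control. Between the repeat and the first array of a control rat, Avpr1b differed by -0.12, -0.20 and 0.45, with a mean of 0.05.

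Avpr1a differed by at most 0.09 in size between any group and the stress or control rats. Its means were 7.82 with fluoxetine, 7.79 with imipramine, 7.79 with tianeptine, 7.73 with agomelatine, 7.75 with stress alone and 7.73 in control rats. The 3 fluoxetine rats, at 7.79, 7.82 and 7.84, lay just above the control rats at 7.77, 7.73 and 7.68, and overlapped the stress rats at 7.83, 7.60 and 7.82.

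The counts of members called are given here beside the share over all genes. In stress minus control limma called 0 of 8 members and 0% of all genes, and an unadjusted p under 0.05 was found for 2 members (Nr3c2 lower, Fkbp4 higher) and 5.4% of genes. The 3 stress and 3 control rats did not overlap for those 2 members, and for 13.1% of all genes. The median difference of the members was 0.01, beside 0.02 over all tested genes.

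Against stress, 0 of 8 members and 0% of all genes were called by limma with fluoxetine, imipramine or tianeptine. An unadjusted p under 0.05 was found for 1 member with fluoxetine (Avpr1b; all genes 5.01%), for 2 with imipramine (Fkbp4 and Crhbp; all genes 10%) and for 2 with tianeptine (Fkbp4 and Avpr1b; all genes 5.06%). The groups did not overlap for 1 member with fluoxetine (all genes 10.8%), 1 with imipramine (all genes 19.7%) and 2 with tianeptine (all genes 11.2%). With agomelatine 1 of 8 members was called, Crhbp, where 10.8% of all genes were called. There the groups did not overlap for 3 members, Nr3c2, Fkbp4 and Crhbp, and for 25.2% of all genes.

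Against control, 0 of 8 members were called by limma with fluoxetine (all genes 0%), imipramine (all genes 0.0185%) or tianeptine (all genes 0%), and 0 had an unadjusted p under 0.05. With agomelatine 1 of 8 was called, Crhbp, beside 9.59% of all genes. Non-overlapping groups were found for 2 members with fluoxetine, Avpr1a and Avpr1b (all genes 11.5%), 0 with imipramine (all genes 19.3%), 0 with tianeptine (all genes 10.9%) and 1 with agomelatine, Crhbp (all genes 25.7%).

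In averages over groups, limma called 0 members for the 3 drugs at 10 mg/kg against stress (all genes 0.00926%) and 0 for the 5 stressed groups against control (all genes 0.00926%). The 3 drugs averaged differed from stress with an unadjusted p under 0.05 for 3 members, beside 5.86% of all genes. These were Fkbp4 (-0.22 ± 0.07, SE), Avpr1b (0.21 ± 0.08) and Nr3c2 (0.11 ± 0.05), each with an adjusted p of 0.790. The 5 stressed groups differed from control in this way for Crhbp alone (0.18 ± 0.08), beside 5.9% of all genes. By group, Crhbp minus control was 0.54 with agomelatine, 0.18 with stress alone, 0.17 with fluoxetine, 0.06 with tianeptine and -0.06 with imipramine.

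The 3 drugs given at 10 mg/kg were compared with each other in 3 pairs, which makes 24 differences for the 8 members. Limma called 0 of them and 0% of all genes in each pair. Tianeptine and imipramine had 0 members with an unadjusted p under 0.05, beside 6.15% of all genes. Their largest difference was in Fkbp5, at -0.21 ± 0.12 (SE, 95% interval -0.46 to 0.04). Fluoxetine differed from imipramine with an unadjusted p under 0.05 in 2 members, beside 11% of all genes. These were Fkbp5 (-0.28, 95% interval -0.54 to -0.03) and Crhbp (0.23, 95% interval 0.01 to 0.46). From tianeptine it differed in this way in 0 members, beside 4.45% of all genes. The smallest p of a member adjusted over all genes and the 3 pairs together was 0.653. The intervals reached between 0.127 and 0.254 to either side of a difference. Agomelatine was given at another dose and is not compared with these drugs.

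Technical repeat arrays of the 3 control rats show how far a member can shift with no change of group. For Fkbp5 the repeat arrays read 9.69, 9.85 and 9.70, against 9.88, 9.87 and 10.11 on the first arrays, lower in all 3 rats (mean -0.20). For Fkbp4 they read 9.58, 9.77 and 9.89, against 9.90, 9.88 and 10.01, again lower in all 3 (mean -0.18). These shifts are of the size of the stress differences of both genes, 0.17 and 0.20.

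Nr3c2 shifted by 0.09 on average, higher in all 3 rats, and Avpr1a by -0.16, lower in all 3. Crhbp shifted by 0.13 on average, with values between -0.13 and 0.36, and Nr3c1 and Hsd11b1 by 0.01 and 0.02. The largest Crhbp shift, 0.36 in control replicate 3, comes from 1 pair of arrays. The Crhbp difference between agomelatine and stress, also 0.36, is between means of 3 rats, for which the mean shift of 0.13 is the nearer measure.

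**Figure D4:**
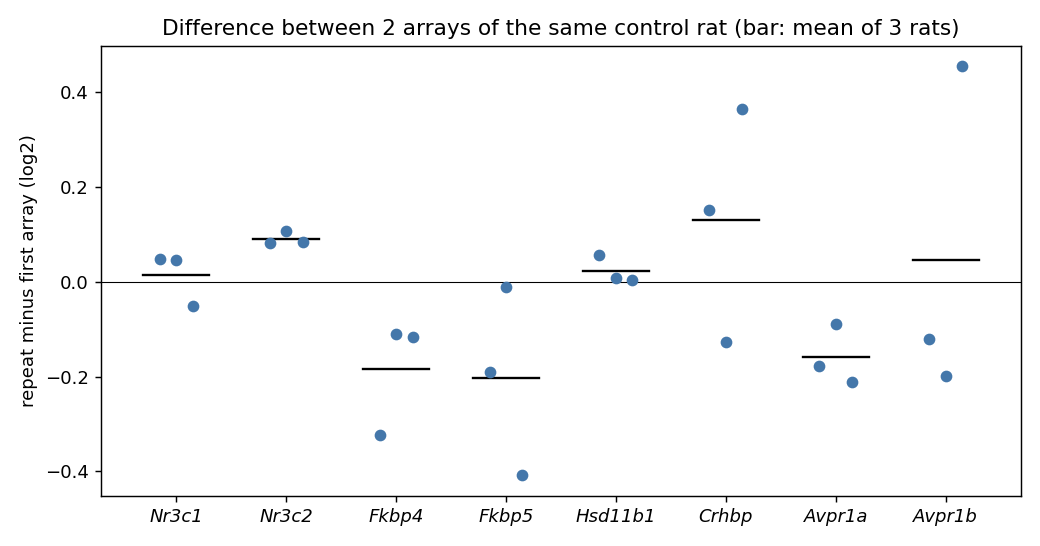
Repeat minus first array (log2, vertical axis) of each control rat (points, n = 3) and their mean (bar) for the 8 tested members. Fkbp4, Fkbp5 and Avpr1a are lower and Nr3c2 higher on the repeat array of all 3 rats, with means of -0.18, -0.20, -0.16 and 0.09.

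The pathway around the members was read from a list of 37 genes of the hormone axis and the receptor machinery, of which 29 were tested. In stress minus control, and with fluoxetine, imipramine or tianeptine against stress, 0 of the 29 were called. An unadjusted p under 0.05 was found for 1, 0, 5 and 2, beside 5.4%, 5.01%, 10% and 5.06% of all genes. With agomelatine 3 rose and 2 fell against stress, with a list median of -0.03 beside -0.03 for all genes, and 2 rose and 2 fell against control. Of all genes 10.8% were called against stress and 9.59% against control. Hsp90aa1, the inducible HSP90 that holds the receptors ready for hormone, rose to 12.69 ± 0.07 with agomelatine, against 12.36 ± 0.04 in stress and 12.38 ± 0.07 in control rats (SD, n = 3 each). The difference was 0.32 against stress (adjusted p = 0.00569). Ptges3, the HSP90 cochaperone p23, rose by 0.25 against stress, and Dnajb1, an HSP40 that helps load the receptor onto HSP70, fell by 0.27.

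Adcyap1r1, the receptor for the stress peptide PACAP, fell to 10.82 ± 0.07 with agomelatine, against 11.18 ± 0.06 in stress and 11.15 ± 0.09 in control rats (SD, n = 3 each; adjusted p = 0.00232 against stress). Pgr, the progesterone receptor and a relative of Nr3c1 and Nr3c2, rose by 0.46 against stress and 0.54 against control. Hsd11b2, the enzyme that inactivates corticosterone and so opposes Hsd11b1, fell by 0.36 against control (adjusted p = 0.0453) and differed by -0.14 from stress.

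Genes that corticosteroid receptors are known to induce were taken from a list of 20, of which 19 were tested. In stress minus control 16 of the 19 were above 0, with a median of 0.14 beside 0.02 for all genes. Limma called 0, and 7 had an unadjusted p under 0.05, beside 5.4% of all genes. In the same comparison 4 of 4 choroid plexus (median 0.19), 9 of 9 interneuron (0.14), 6 of 7 astrocyte (0.13) and 3 of 5 meningeal markers (0.13) were also above 0. So were 7 of 7 CA1 and CA3 (0.10), 6 of 7 oligodendrocyte (0.09) and 4 of 5 CA2 markers (0.03). Microglial and endothelial and pericyte markers had 4 of 8 above 0 each (0.01 each), and granule neuron markers 1 of 5 (-0.04). Of these markers 0 were called, and their part in the list's shift was not tested. Against stress, fluoxetine, imipramine and tianeptine had 0 calls each, with list medians of -0.06, -0.06 and -0.07. An unadjusted p under 0.05 was found for 5, 2 and 5, beside 5.01%, 10% and 5.06% of all genes. For the 3 drugs at 10 mg/kg averaged against stress, limma called 1 list gene lower. For the 5 stressed groups averaged against control it called 1 list gene higher. In each of these averages the list gene was the 1 gene called of 10804. The list was chosen with earlier results of these data known, so these calls are a description only. The 5 stressed groups include the agomelatine group. With agomelatine 2 rose and 3 fell against stress, where 10.8% of all genes were called, and 3 rose and 2 fell against control, where 9.59% were.

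Sgk1, a kinase gene induced by both receptors, rose to 11.45 ± 0.08 with agomelatine, against 10.93 ± 0.10 in stress and 10.68 ± 0.03 in control rats (SD, n = 3 each). Its difference was 0.52 against stress (adjusted p = 0.000202). Sgk1 is also expressed by oligodendrocytes, whose markers rose in the same rats, and their part in this difference was not tested. Against control Nfkbia, an inhibitor of NF-kB, rose by 0.38 and Pdk4, which restrains pyruvate oxidation, by 0.40. The metallothionein gene Mt1 fell by 0.38 against stress, the arrestin-related gene Arrdc2 fell by 0.32 against stress and by 0.39 against control, and Zbtb16, a zinc-finger factor gene, fell by 0.34 against control. Fkbp5, the induced gene among the members, was not called in any of these comparisons.

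The genes whose levels over the 18 rats were most like each main member are named by Pearson's r, with all rats pooled over the 6 groups and every gene read from the same arrays. For Nr3c1 these were Wdr37 (r = 0.74), Gnpda2 (0.70) and G2e3 (0.70), and for Nr3c2 Pwwp2a (0.80), Nfat5 (0.77) and Irak1bp1 (0.77). For Fkbp4 they were Add1 (0.83), Ubl3 (0.82) and Jade2 (0.80), and for Fkbp5 Gtf2f1 (0.82), Kidins220 (0.81) and Lonp1 (0.81). These are the 3 highest of 10804 genes each and are given as a description only.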

How the data were processed

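Per the submitters' processing notes the tools were Affymetrix Expression Console 1.2 and RMA, and the values the authors deposited are log2 expression per probe set. RMA corrects background, brings all arrays to one distribution and combines a probe set's probes, and it shrinks differences at low signal. The genome build behind the annotation of the probes was not given in the sources used here. Genes were named through the platform annotation, in which 15310 of 29214 probe sets had 1 symbol, 323 several and 13581 none. Of 9 members measured, 8 matched the RefSeq gene table of GRCr8 by gene number and Avpr1b kept the name of the annotation.

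The first and repeat arrays of each control rat were averaged. The probe set with the highest mean was taken per gene, and those under the 25th percentile of mean signal (log2 7.17) were left out. A model with 1 mean per group was fitted over all 18 rats with limma 3.58.1 in R 4.3.3 (empirical Bayes with an intensity trend). P-values were adjusted by Benjamini-Hochberg over 10804 genes, and a gene was called at an adjusted p under 0.05. Within-rat differences were tested with an exact permutation test (scipy 1.17.1). The procedure was tested on simulated data.

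The text names all members, to the 3 genes most like Nr3c1, Nr3c2, Fkbp4 and Fkbp5, and to at most 6 called genes of each of the 2 pathway lists. The members and lists were chosen with earlier results of these data known. Replicate numbers do not pair the rats: of 27 correlations between same-numbered rats of different groups, 7 were over 0.1 (range -0.30 to 0.29), and in 0 of 9 comparisons were all 3. The labels call the animals biological replicates. Arrays carry no read depth. The number of animals limits the precision, as do the shifts between arrays of the same rat, and only the control rats had repeat arrays.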

Additional observations from a re-analysis of the deposited data

How the results depend on the processing

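Over 462 recounts of called members in 14 comparisons and the F test, 444 gave the same count and 18 did not, all in agomelatine against stress, agomelatine against control and the F test. In agomelatine against stress the count of 1 became 0 with only the repeat control arrays (Crhbp adjusted p = 0.0639), with all 21 arrays and the animal as random block (0.0701), with array weights (0.0984) and with only the groups compared (0.149). It became 2, with Nr3c2 added, under equal array medians (Nr3c2 adjusted p = 0.0343) and at an adjusted p under 0.1. A filter at the 50th percentile gave 0 in agomelatine against stress, agomelatine against control and the F test, as it leaves Crhbp untested. With each animal left out the count ran between 0 and 2 in agomelatine against stress and between 0 and 2 in the F test. Array weights gave 2 in the F test (Fkbp4 and Crhbp). With the replicate block, which the numbers do not justify, the count stayed 1 in agomelatine against stress (Crhbp adjusted p = 0.0358) and in agomelatine against control (0.00474), and no call of a member changed. Of 72 member differences 35 changed sign in some alternative, none larger than 0.10 in size, and none of them was called. The 180 recomputed within-rat differences all moved by less than the larger SD of the groups compared. That SD can exceed the difference itself, as for Fkbp5 minus Fkbp4 in stress minus control (-0.03, SD 0.18 in stress rats). Such a limit cannot show that a difference kept its size or sign. The cause of these changes was not tested.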

Other observations

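Genes whose level was most like Crhbp over the 18 rats were looked up after its values were seen. They were Cntn2, a contactin gene of oligodendrocytes and neurons (Pearson's r = 0.89), Man1a1, a mannosidase of glycoprotein processing (0.88), and Adcy3, an adenylyl cyclase of neuronal cilia (0.88), over rats pooled from 6 groups on the same arrays. After the group means were taken out, r was 0.61 for Cntn2, 0.75 for Man1a1 and 0.76 for Adcy3. Adcyap1, the PACAP gene of the hormone axis list, was not called, and differed by 0.36 ± 0.21 (SE) between stress and control and by -0.32 ± 0.21 between agomelatine and stress.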
